A study of Mus musculus with 6 samples.

Results

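Coenzyme Q (ubiquinone) is the lipid that carries electrons within the inner mitochondrial membrane, and 10 mouse genes that make, modify or bind it are described here: Pdss1, Pdss2, Coq2, Coq3, Coq4, Coq5, Coq6, Coq7, Coq9 and Coq10b. They were taken by name, with no measured value in the rule but with earlier results of these data known. All 10 were found among the 22310 genes of the table. RNA was sequenced from primary tumor cells of MMTV-PyMT mice, in which the mouse mammary tumor virus promoter drives the polyoma middle T antigen in the mammary epithelium. Tumor cells were plated, grown for 1 day in DMEM/F12 with 2% FBS, insulin at 10 µg/ml, hEGF at 20 ng/ml and penicillin-streptomycin, and then sorted. Metastasis-initiating cells (MICs) were the Lin-CD24+CD90+ gate, the Lin-CD24+CD90- gate gave the non-MICs, and each gate gave 3 libraries. Both populations carry the transgene under a genotype given as WT, both come from mammary tumors on the FVB/N background, and they differ by the CD90 gate. The study's methods describe tumors taken from mice a few months old, and the labels do not say how many animals stand behind a library, so a p-value measures the spread between these libraries.

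Coenzyme Q takes electrons from complexes I and II and from several smaller dehydrogenases and hands them to complex III, so respiration in the tumor cell depends on it. It is built in mitochondria from a ring that comes from tyrosine and a long isoprenoid tail that comes from the mevalonate pathway. PDSS1 and PDSS2 make the tail, COQ2 joins it to the ring, COQ6, COQ3, COQ5 and COQ7 hydroxylate and methylate the ring on a complex that COQ4 and COQ9 help to hold together, and COQ10B binds the finished lipid. The comparison asked whether the transcripts of this pathway differ between MICs and non-MICs, whose mitochondrial activity was the subject of the study.

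Values are normalized read counts, that is reads per gene scaled to a total of 35000000 in every library. The libraries held between 31467281 and 51759769 reads, and a member held between 312 and 3760 reads in a library. Libraries with the same number in both populations departed together from their group means and are called pairs 1, 2 and 3. Both libraries of pair 3 were read deeper, with 51759769 reads in MICs and 49904738 in non-MICs, against at most 33126717 in the others. Whether depth bears on the differences between pairs was not tested. Thy1, which encodes the CD90 used for sorting, was read at 1509, 301 and 755 in MICs and at 16.9, 21.1 and 12.6 in non-MICs. Cd24a lay between 11309 and 19406 in all 6 libraries. Of the cells removed by the lineage gate, Ptprc, a leukocyte marker, lay between 0 and 10.0 and Pecam1, an endothelial marker, between 4.06 and 19.4. In bulk RNA, a smaller share of cells that express a gene and less RNA per cell cannot be told apart.

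None of the 10 genes passed the test between MICs and non-MICs, and Coq3 and Coq10b had the largest differences. Coq3, the O-methyltransferase of the ring, and Coq10b were higher in MICs in pairs 1 and 2, while in pair 3 the populations lay close together. Coq10b was read at 4054, 3795 and 2485 in MICs 1, 2 and 3 and at 2936, 2226 and 2401 in non-MICs 1, 2 and 3. Coq3 was read at 1314, 1649 and 749 in MICs and at 857, 919 and 821 in non-MICs. Both genes had 2 MIC libraries above every non-MIC library and the other MIC library within or below the non-MIC range. The start regions of these 2 genes are shown because their values differ most between the populations. Each line gives the 250 bases before the first transcription start that RefSeq lists (GRCm38.p6), on the plus strand, chr4:21879396-21879645 for Coq3 and chr1:55052520-55052769 for Coq10b. Capitals mark matches on either strand to 4 motifs that were searched for. The E-box was searched as CACGTG. The box that NF-Y binds was searched as CCAAT. The motif of ETS factors was searched as CCGGAAG, and the last was the NRF1 motif.
Coq3: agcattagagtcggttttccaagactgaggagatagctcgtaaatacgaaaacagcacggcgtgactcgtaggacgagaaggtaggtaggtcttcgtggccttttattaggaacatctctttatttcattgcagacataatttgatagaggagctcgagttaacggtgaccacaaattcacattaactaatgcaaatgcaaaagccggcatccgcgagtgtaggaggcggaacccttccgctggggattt
Coq10b: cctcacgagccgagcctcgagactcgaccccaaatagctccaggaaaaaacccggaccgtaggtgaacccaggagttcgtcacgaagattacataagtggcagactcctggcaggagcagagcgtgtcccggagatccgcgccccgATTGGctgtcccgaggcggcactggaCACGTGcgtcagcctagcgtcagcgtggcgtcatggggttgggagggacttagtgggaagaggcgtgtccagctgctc

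The Coq10b stretch held an E-box 78 to 73 bases before the start and a CCAAT box, read as ATTGG, 104 to 100 bases before it, and 62.0% of its bases were G or C. The Coq3 stretch held none of the 4 motifs, and 46.0% of its bases were G or C. RefSeq lists 2 starts for Coq3, and an NRF1 motif lies in a window around its starts, outside the stretch printed. Over the RefSeq windows of 300 bases around starts, 9 of the 10 members had an entry, and Coq5 is the other. The ETS motif was in 3 of the 9 (Coq6, Pdss1 and Pdss2), against 8.86% of all 32851 windows. CACGTG was in 2 of the 9 (Coq10b and Coq4), against 7.15%, CCAAT was in 3 (Coq10b, Coq6 and Coq7), against 37.4%, and the NRF1 motif was in 1 (Coq3), against 4.6%. A match is a run of letters and not evidence that a factor binds there.

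Coq10b spans chr1:55052770-55072702 (plus strand) and Coq3 spans chr4:21879673-21912162 (plus strand) in GENCODE vM21 on GRCm38. On the log2(value + 1) scale, Coq10b was 0.43 higher in MICs (standard error 0.25, n = 3 per population) and Coq3 was 0.44 higher (standard error 0.31), and both had an adjusted p of 1 in limma without a block. With the pair as a block, the standard errors were 0.18 and 0.20, the 95% intervals were 0.05 to 0.81 for Coq10b and 0.004 to 0.88 for Coq3, and the adjusted p in limma was 0.423 and 0.440. Within pair 1, the ratio of MICs to non-MICs for Coq10b was 1.38 (95% counting interval 1.31 to 1.45), against 1.71 (1.61 to 1.80) within pair 2 and 1.04 (0.988 to 1.09) within pair 3. The ratios for Coq3 were 1.53 (1.40 to 1.68), 1.79 (1.65 to 1.95) and 0.913 (0.840 to 0.992) in the same order. These intervals are exact, come from the recovered reads and cover counting error only. In pairs 1 and 2 they lay above 1 for both genes, and in pair 3 the interval of Coq10b held 1 and that of Coq3 lay below it. Without pair 2, the difference with the block was 0.26 for Coq10b and 0.24 for Coq3, and without pair 3 it was 0.62 and 0.73.

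**Figure D1:**
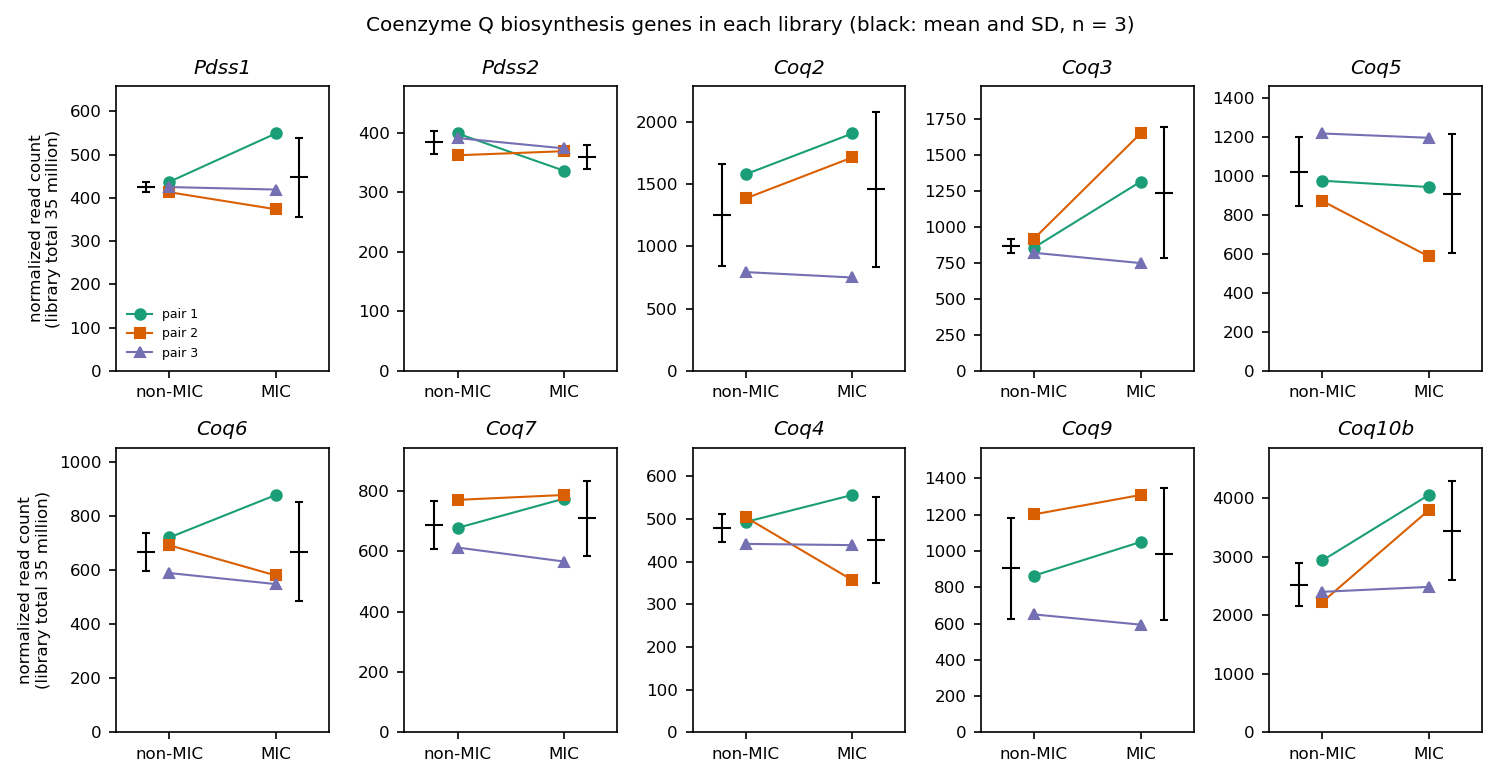
Normalized read count (y axis, library total scaled to 35000000, starting at 0) of each of the 10 genes in non-MICs and MICs, with a line for each same-numbered pair and the mean and SD (n = 3) in black. Coq10b and Coq3 are higher in MICs in pairs 1 and 2 and almost level in pair 3, and Coq2 and Coq9 are lowest in both libraries of pair 3.

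The test threshold was an adjusted p below 0.05 over all 22310 genes. Without a block, limma called 0 of the 10 members and 0% of all genes, with 322 genes at an unadjusted p below 0.05 (1.44%) and none of the members among them. The fit with the pair as a block called 29 genes (0.130%) and again no member. Coq3 and Coq10b were the 2 of 10 members at an unadjusted p below 0.05 in the blocked limma fit, against 11.2% of all genes. On recovered reads with the block, the edgeR quasi-likelihood test called 1.41% of all genes and DESeq2 called 0.596%, and no member was called by either. The smallest adjusted p of a member was 0.307 in edgeR (Coq3) and 0.290 in DESeq2 (Coq10b), both with the block. An exact permutation test of 3 libraries against 3 cannot give a two-sided p below 0.1. The values of MICs and non-MICs overlapped in all 10 genes, while 6.24% of all genes had groups that did not overlap.

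**Figure D2:**
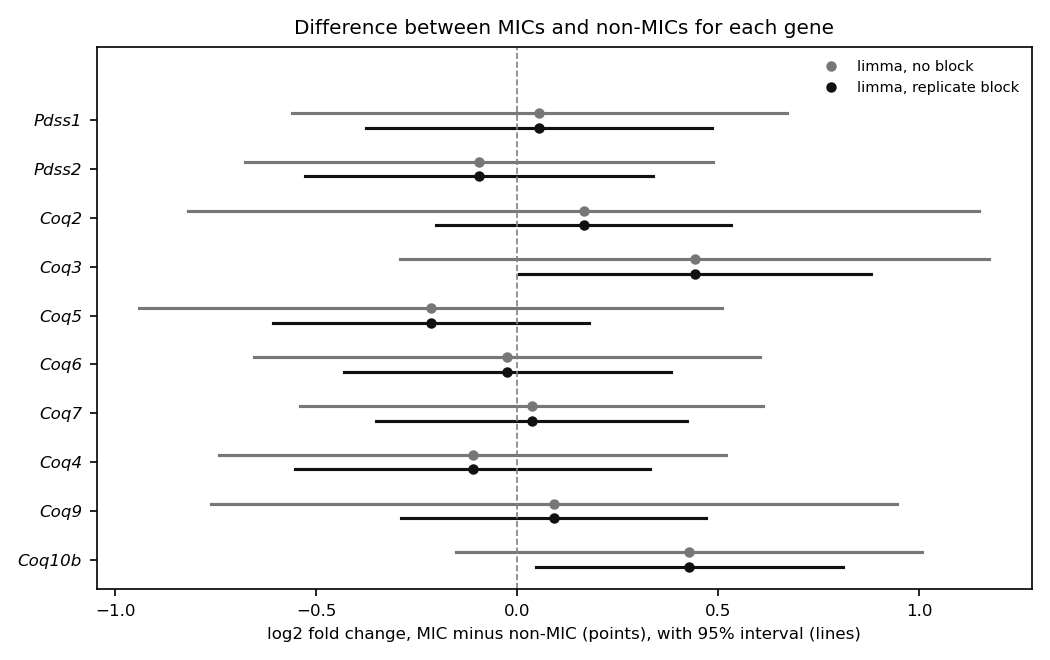
Log2 fold change of MICs over non-MICs (x axis; points) with its 95% interval (lines) for each gene, from limma without a block (grey) and with the pair as a block (black). Every grey interval crosses 0, and the black intervals of Coq3 and Coq10b have their lower ends just above 0.

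The genes of the tail differed little between the populations. Pdss1 and Pdss2 encode the subunits of the polyprenyl diphosphate synthase, which sets the length of the isoprenoid tail. Pdss1 (chr2:22895522-22940266, plus strand) was read at 549, 374 and 419 in MICs and at 437, 413 and 425 in non-MICs. Pdss2 (chr10:43221486-43464882, plus strand) was read at 336, 369 and 374 in MICs and at 399, 362 and 391 in non-MICs. The MIC library of pair 1 held the highest Pdss1 and the lowest Pdss2 of the 6 libraries. The difference was 0.05 for Pdss1 (95% interval with the block -0.38 to 0.49) and -0.09 for Pdss2 (-0.53 to 0.34) on the log2 scale. Per kilobase of exon, Pdss1 stood at 2.29 times Pdss2 in the MIC library of pair 1 and at between 1.42 and 1.60 times in the other 5 libraries.

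Coq2 (chr5:100654723-100675140, minus strand), the prenyltransferase that joins tail and ring, differed more between pairs than between populations. It was read at 1908, 1715 and 751 in MICs and at 1580.2, 1386 and 794 in non-MICs. Both libraries of pair 3 lay below all 4 others. The difference was 0.17 (standard error 0.42 without and 0.17 with the block, 95% interval with the block -0.20 to 0.53, adjusted p in limma with the block 0.733). The ratio of MICs to non-MICs was 1.21 (1.13 to 1.29), 1.24 (1.15 to 1.33) and 0.945 (0.870 to 1.03) in pairs 1, 2 and 3.

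Among the enzymes of the ring, the 2 methyltransferases had differences of opposite sign, neither of which passed the test. Coq5 (chr5:115279666-115296972, plus strand), the C-methyltransferase, was read at 944, 587 and 1196 in MICs and at 976, 872 and 1218 in non-MICs. It was the 1 member lower in MICs in all 3 pairs, a pattern that 18.8% of all genes had, and the size came from pair 2, where the ratio was 0.674 (0.603 to 0.752), while the intervals of pairs 1 and 3 held 1. Its difference was -0.21 (standard error with the block 0.18, 95% interval -0.61 to 0.18, adjusted p in limma with the block 0.666). Per kilobase, Coq3 stood at 1.41, 2.84 and 0.634 times Coq5 in MICs and at 0.889, 1.07 and 0.682 times Coq5 in non-MICs of pairs 1, 2 and 3. The balance of the 2 methyltransferases was thus highest in the MIC library of pair 2, where Coq3 had its highest and Coq5 its lowest value, and the 2 libraries of pair 3 had alike ratios.

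The hydroxylases Coq6 and Coq7 showed no steady direction. Coq6 (chr12:84361657-84373796, plus strand), a flavin-dependent monooxygenase, was read at 877, 579 and 548 in MICs and at 719.7, 691 and 588 in non-MICs. The ratio for Coq6 was 1.22 (1.10 to 1.35) in pair 1 and 0.839 (0.746 to 0.942) in pair 2, so that the 2 intervals lay on opposite sides of 1. Its difference was -0.02 (95% interval with the block -0.43 to 0.38), with a sign that turned under other processing. Coq7 (chr7:118509659-118533356, minus strand), which carries out the last hydroxylation, was read at 774, 786 and 566 in MICs and at 677, 770.2 and 612 in non-MICs, with a difference of 0.04 (-0.35 to 0.42).

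Coq4 and Coq9 belong to the complex on which the ring is modified, and Coq9 binds the lipid intermediate and works with COQ7. Coq4 (chr2:29787493-29797935, plus strand) was read at 556, 357 and 439 in MICs and at 493, 504 and 442 in non-MICs. The low MIC library of pair 2 stood out, with a ratio of 0.708 (0.613 to 0.818), against 1.13 (0.993 to 1.28) and 0.993 (0.889 to 1.11) in pairs 1 and 3. Of the exon bases of Coq4, 27.1% are shared with Trub2 on the other strand, and since the sources do not say whether the counting used strand, its level is uncertain. Coq9 (chr8:94838321-94854895, plus strand) was read at 1049, 1308 and 594 in MICs and at 864, 1201 and 650.1 in non-MICs, with both libraries of pair 3 again the lowest. The differences were -0.11 (95% interval with the block -0.55 to 0.33) for Coq4 and 0.09 (-0.29 to 0.47) for Coq9. All these intervals reach beyond 0.3 on the log2 scale in at least 1 direction, so a difference of that size cannot be told from none. No more than 7.14% of the exon bases of any member other than Coq4 are shared with 1 other gene.

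Taking the 10 genes by pair, 1 was higher in MICs in all 3 pairs (Coq10b), against 12.5% of all genes, and 1 was lower in all 3 (Coq5). Another 4, Coq2, Coq3, Coq7 and Coq9, were higher in pairs 1 and 2 and lower in pair 3, against 15.6% of all genes. A log2 fold change above 0 was found for 6 of 10 members and for 45.8% of all genes. By pair, the members had median log2 differences of 0.28, 0.03 and -0.07, against -0.02, 0.04 and -0.05 over all genes. Summed, the normalized read counts of the members were 12362, 11521 and 8120.5 in MICs. In non-MICs they were 9939, 9345 and 8342. Without Coq3 and Coq10b, the other 8 genes summed to 6993, 6076 and 4886 in MICs. In non-MICs these 8 summed to 6146, 6199.8 and 5121, so in pair 2 the higher sum of the members in MICs rested on Coq3 and Coq10b.

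**Figure D3:**
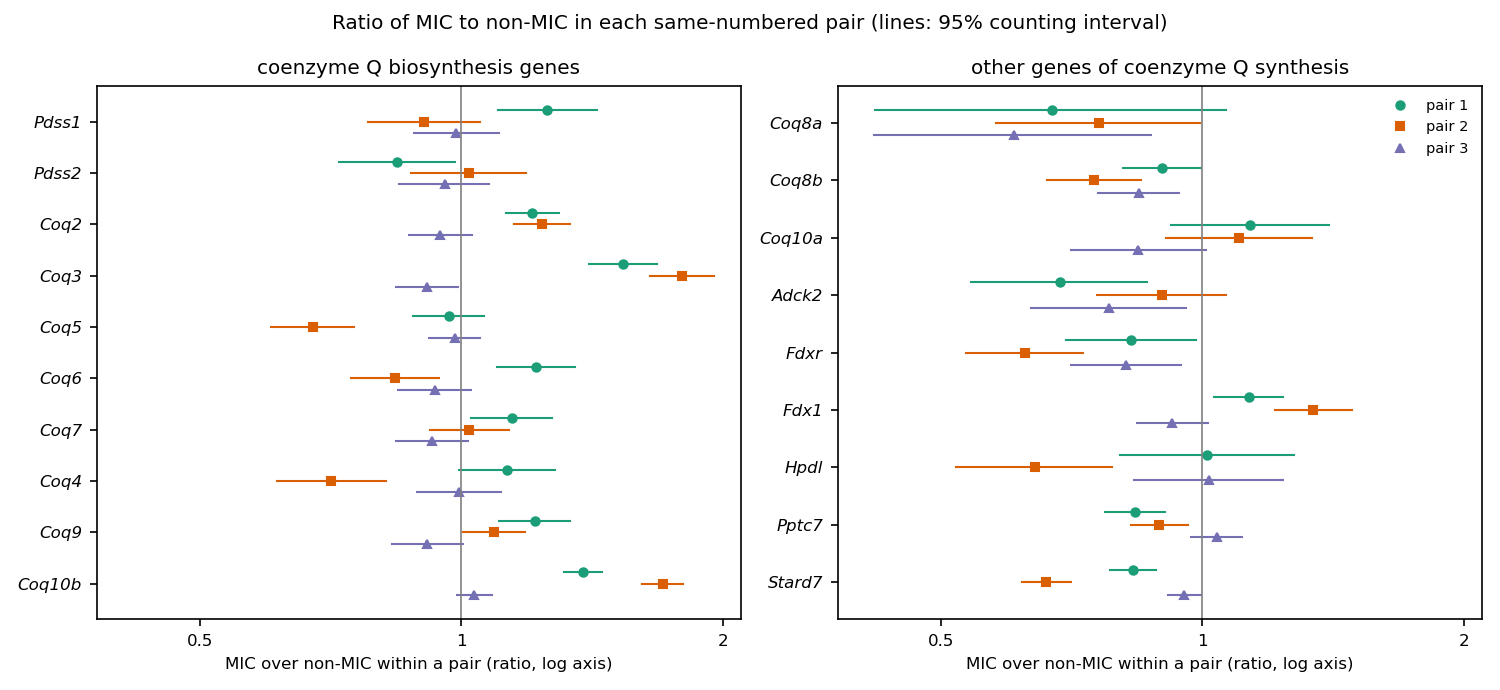
Ratio of MICs to non-MICs within each same-numbered pair (x axis, log scale) with its 95% counting interval, for the 10 members (left) and 9 further genes of coenzyme Q synthesis (right). On the left, Coq3 reaches 1.79 and Coq10b 1.71 in pair 2, and on the right Coq8a, Coq8b, Adck2, Fdxr and Stard7 lie left of 1 in all 3 pairs.

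In the median, most of the spread of these genes lay between pairs, as it did for genes in general. Of the sum of squares of a member's 6 log2 values, the pair number took between 14.0% (Pdss2) and 94.9% (Coq9), with a median of 68.9%. It took 38.0% for Coq10b, 43.2% for Coq4 and 44.3% for Coq3. The pair number has more levels than the population, so their shares are not on equal terms. The population took 42.1% for Coq10b, 35.4% for Pdss2 and 29.6% for Coq3, no more than 9.4% for each of the other 7, and 5.1% in the median. Over the 9135 genes with a mean at or above that of the lowest member, the medians were 67.9% for the pair number and 13.0% for the population. In Pdss2 the population's share belongs to a small total spread, since its values per kilobase lay between 56.4 and 66.9.

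**Figure D4:**
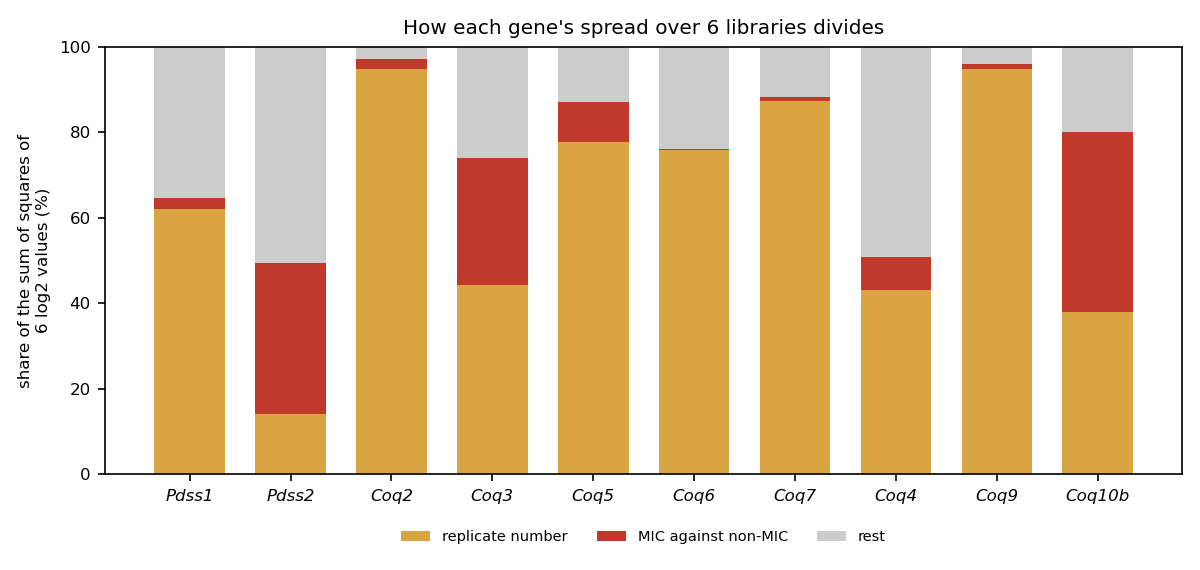
Share of the sum of squares of each gene's 6 log2 values (y axis, %) that went with the pair number, with MICs against non-MICs, and with neither. The pair number fills 94.8% of the bar of Coq2 and 94.9% of that of Coq9, and the population fills its largest share, 42.1%, in Coq10b.

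Levels between genes were compared per kilobase of exon. Coq10b was highest, at 621 ± 160.4 normalized reads per kilobase (SD, n = 6 libraries), followed by Coq2 at 517 ± 184 and Coq3 at 351 ± 118. Coq5 followed at 318 ± 76.5, Coq9 at 309 ± 95.5 and Coq6 at 212 ± 39.1. The lowest were Coq4 at 137 ± 20.2, Coq7 at 108 ± 14.6, Pdss1 at 103 ± 13.9 and Pdss2 at 62.4 ± 3.73. Coq10b stood above Coq2 in 5 of 6 libraries, and Coq2 above Coq3 in 6. The order of Coq3 and Coq5, of Coq5 and Coq9, and of Coq7 and Pdss1 was split, with 3 libraries each way, and these neighbors did not differ beyond their spread. Coq9 stood above Coq6, Coq6 above Coq4 and Pdss1 above Pdss2 in all 6 libraries, and Coq4 above Coq7 in 5.

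**Figure D5:**
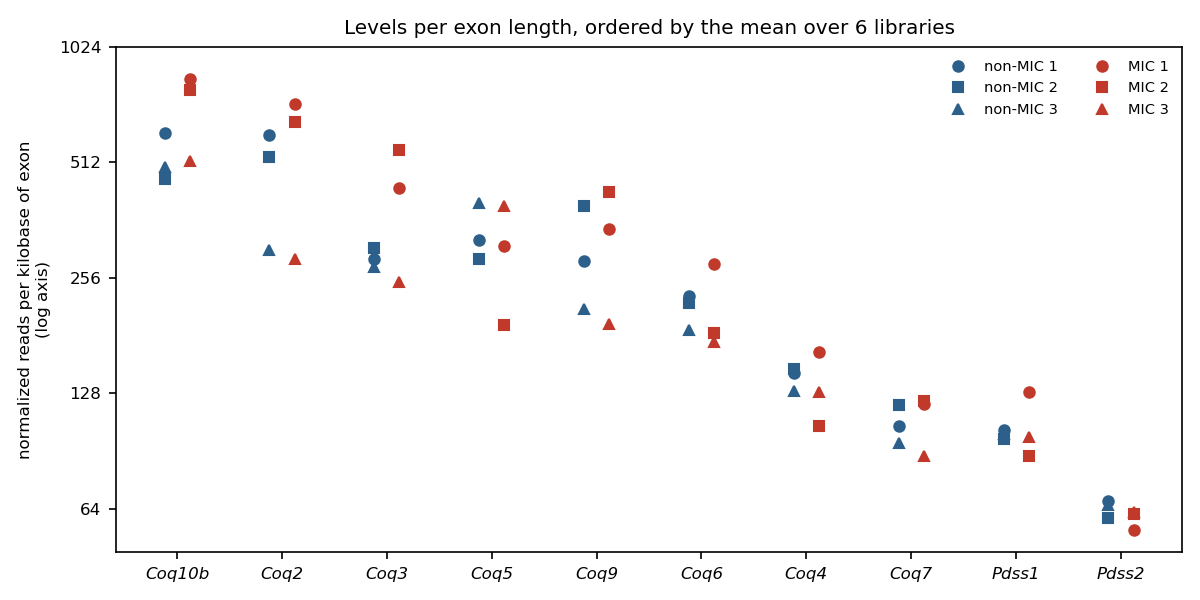
Normalized reads per kilobase of exon (y axis, log scale) of the 10 genes in the 6 libraries, ordered by their mean, with non-MICs in blue, MICs in red and the pair number as the symbol. The libraries of Pdss2 lie together between 56.4 and 66.9, while those of Coq2 run from 286 to 727.

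Coq10a, the paralog of Coq10b, was scarcer and differed less. It was read at 210.3, 246 and 157 in MICs and at 185, 223 and 186 in non-MICs, with a log2 difference of 0.03 (95% interval with the block -0.49 to 0.54). Per kilobase, Coq10b stood at 10.3, 8.27 and 8.48 times Coq10a in MICs and at 8.49, 5.35 and 6.92 times in non-MICs, higher in the MIC library of each pair. The difference between the paralogs was not tested.

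Of 12 further genes of coenzyme Q synthesis, 10 were in the table, and Tat and Hpd were not matched. None of the 10 passed the test, with or without the block, and none had an unadjusted p below 0.05 in limma, but 5 of them were lower in MICs in all 3 pairs, against the 18.8% of all genes given above. Coq8a and Coq8b encode kinase-like ATPases that the ring-modifying complex depends on. Coq8b was read at 746, 491 and 435 in MICs and at 831, 654.0 and 515 in non-MICs, with ratios of 0.898 (0.810 to 0.996), 0.750 (0.662 to 0.849) and 0.845 (0.759 to 0.940). All 3 counting intervals lay below 1, and the log2 difference was -0.27 (adjusted p in limma with the block 0.581). Coq8a was scarce, with 33, 96 and 51 reads in MICs and 50, 133 and 81 in non-MICs, and its log2 difference was -0.55 (95% interval with the block -1.25 to 0.14). Of the exon bases of Coq8a, 6.91% are shared on the other strand with Cdc42bpa, a gene with a mean value of 4374, so its level is uncertain. Adck2, which encodes a protein of the same kinase-like family, had a log2 difference of -0.35 (-0.87 to 0.17). Per kilobase, Coq8b stood at between 4.35 and 19.9 times Coq8a, lowest in both libraries of pair 2.

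Fdxr and Stard7 were the other 2 of these 5. FDXR, ferredoxin reductase, passes electrons to the ferredoxins that serve COQ6. It was read at 262, 295 and 232 in MICs and at 316, 472 and 284 in non-MICs, with a log2 difference of -0.41 (95% interval with the block -0.88 to 0.05, adjusted p in limma with the block 0.480). Stard7, which encodes a lipid transfer protein of mitochondria, was read at 1981, 1713 and 2672 in MICs and at 2380.3, 2591 and 2804 in non-MICs, with a log2 difference of -0.31 (-0.67 to 0.05, adjusted p 0.496). Both genes had their largest gap in pair 2. Fdx1, a ferredoxin, went the way of Coq3 instead, with ratios of 1.13 (1.03 to 1.24), 1.34 (1.21 to 1.49) and 0.923 (0.841 to 1.01) and a log2 difference of 0.16 (-0.23 to 0.56). Hpdl, an enzyme in the supply of the ring, had a log2 difference of -0.20 (-0.75 to 0.35), and Pptc7, a mitochondrial phosphatase, one of -0.12 (-0.48 to 0.24). Pptc7 shares 21.2% of its exon bases on the other strand with Rad9b, a gene with a mean value of 51.5. Fdx2 had between 1 and 35 reads, and 72.7% of its exon bases are shared with another gene on the same strand, so its values are uncertain.

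The lists on either side of coenzyme Q also gave 0 calls in limma with or without the block. Among 12 genes of the mevalonate and isoprenoid pathway the median log2 difference was -0.14, and of these 12, in all 3 pairs, 2 were higher and 5 lower in MICs, against 12.5% and 18.8% of all genes. Ggps1, which makes geranylgeranyl diphosphate, had a difference of 0.39 and Idi1, the isopentenyl diphosphate isomerase, one of 0.37, while Pmvk, phosphomevalonate kinase, had -0.38, with adjusted p of 0.457, 0.468 and 0.448 in limma with the block. Among 7 enzymes that reduce coenzyme Q the median was -0.11, with Nqo1, a quinone reductase, at 0.53, Sqor, the sulfide oxidoreductase, at -0.42 and Prodh, proline dehydrogenase, at -0.42 (adjusted p 0.458, 0.450 and 0.469). Nqo1 differed in pair 1, at 1716 in MICs against 579 in non-MICs, and was close in the other pairs.

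None of the 9 nuclear subunits of complex III, which takes electrons from coenzyme Q, passed the test. They had median log2 differences of 0.47, 0.59 and -0.03 by pair, and of 0.36 over all libraries, and 5 of the 9 were higher in pairs 1 and 2 and lower in pair 3. Uqcrc1, a core subunit, and Cyc1, cytochrome c1, went against the others in pair 2, at -0.47 and -0.33. At an unadjusted p below 0.05 in limma with the block stood 4 of the 9, Uqcrh (0.52), Uqcrb (0.47), Uqcrc2 (0.44) and Uqcrq (0.41), with adjusted p between 0.418 and 0.429, where 11.2% of all genes passed the unadjusted limit. Of the 4 subunits of complex II, Sdhd, which anchors the complex in the membrane and helps to bind the quinone, was read at 7439, 7161 and 5982 in MICs and at 4173, 4572 and 5371 in non-MICs. The groups of Sdhd did not overlap, nor did those of Uqcrc2, as was so for 6.24% of all genes. The difference of Sdhd was 0.55 (95% interval with the block 0.16 to 0.93, adjusted p in limma with the block 0.417). Sdhb differed by 0.15 and Sdha by -0.14.

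Of the cell type markers, 3 contractile genes and Krt5 differed between the populations in limma with the block. The summed level of the 4 smooth muscle and pericyte markers ran from 4614 to 270742 in MICs and from 910 to 55957 in non-MICs, was highest in both libraries of pair 1, and 3 of the 4 (Acta2, Myh11 and Cnn1, all of the contractile apparatus) rose in MICs in limma with the block (adjusted p at most 6.283e-05), while Rgs5 had between 0 and 2 reads. Of the 4 basal epithelial markers, Krt5 rose in the same fit (adjusted p 0.012), and 2 (Krt5 and Trp63) were called by edgeR with the block. The other keratins of the list did not share this rise. Krt14 had a log2 difference of -0.10 and Krt17 one of 0.41, neither called, and both were lower in MICs in pair 2 (-0.90 and -0.12). The sum of these 4 ran from 19607 to 153426 in MICs and from 23164 to 87695 in non-MICs. It was lower in MICs than in non-MICs in pair 2. The 4 luminal markers summed to between 193871 and 558603 in MICs and between 255842 and 653843 in non-MICs, with none called. The 6 fibroblast markers summed to between 636 and 1973 in MICs and between 555 and 874 in non-MICs, with none called by limma and 2 by edgeR with the block. In pair 2 their sum was lower in MICs, at 636 against 696 in non-MICs. Of the 6, 4 were higher in MICs in all 3 pairs, against 12.5% of all genes. Col1a2, a collagen chain, had a log2 difference of 1.74 (adjusted p in limma with the block 0.073). Col1a1, another collagen chain, had one of 0.28 and was lower in MICs in pairs 1 and 2 (-0.19 and -0.62). Immune markers, of which 4 were in the table, summed to between 60.4 and 300.3, and the 4 endothelial markers to between 14.8 and 50.7. Among these markers Lum, Adgre1 and Itgam were also listed at 0 in at least 1 library. Coq3 and Coq10b had their widest gap in pair 2. In pairs 1, 2 and 3, the smooth muscle and pericyte markers summed to 270742, 4614 and 11091 in MICs. In non-MICs they summed to 55957, 910 and 1837.5. Their median log2 differences were alike in the 3 pairs, at 2.32, 2.20 and 2.33. Which cells expressed the contractile genes and Krt5 was not tested, nor was the part of those cells in the differences above.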

How the data were processed

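RNA-seq was compared between 3 MIC and 3 non-MIC libraries, grouped by their titles. The deposited signal is the authors' count per gene scaled to the total of each library, after a filter on expressed genes; every gene had a value above 0 in at least 3 libraries. Reads of stranded mRNA libraries were aligned to GRCm38/mm10. The paper's methods name Bowtie2 and samtools, and the submitters' processing notes name STAR and HTSeq; versions are not given in the sources used here. Values were whole multiples of 1 read within 0.01 read for over 99.9% of genes in each library, which gave back whole reads (31467281 to 51759769 per library).

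The limma fit (3.58.1, R 4.3.3, trend) used log2(value + 1) without a block, after the study's unpaired ranking, with Benjamini-Hochberg adjustment over 22310 genes. Such fold changes understate the change of low genes. Departures from group means, over all genes, correlated at 0.573, 0.668 and 0.746 between same-numbered libraries and at -0.194 to -0.536 between the others, so the replicate numbers were taken to pair the samples, and values with the block are given beside the others. Departures from a group mean cancel within the group. Positive correlations between same-numbered libraries thus push the others below 0, and the negative values are not separate evidence. No source says what same-numbered libraries share. edgeR 4.0.16 (quasi-likelihood, TMM) and DESeq2 1.42.0 were run on recovered reads, and each fit was tested on simulated data. Positions, exon lengths and symbols came from GENCODE vM21, which held 22161 of 22310 identifiers; start regions came from RefSeq (GRCm38.p6). Alternatives covered the pseudocount (0.1, 10), a filter on low values, scaling, the trend, the tool, the block and left-out libraries. The members and lists were chosen with earlier results of these data known. The text names all members, Thy1, Cd24a and every further gene of coenzyme Q synthesis. From each other list it names the genes past the threshold in limma, or else at most the 3 with the smallest blocked p, and genes listed at 0. Some genes were named after their values were seen. These were the fourth complex III subunit at an unadjusted p below 0.05, Uqcrc1, Cyc1, Krt14, Krt17, Trp63, Col1a1 and some list members given for their level. An item withheld for evaluation is not reported here.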

Additional observations from a re-analysis of the deposited data

How the results depend on the processing

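The number of the 10 members called stayed at 0 in all 21 alternatives, of which 12 kept all libraries and 9 left some out, and so did the number called among the other lists of the pathway. The median log2 difference of the members was 0.05 and ranged from -0.08 to 0.15. Coq3 (0.20 to 0.77), Coq10b (0.26 to 0.65) and Pdss2 (-0.16 to -0.02) kept their sign in every alternative. Coq6, at -0.02, turned to 0.041 with quantile normalization, 0.014 in edgeR, 0.042 in DESeq2 and 0.008 in DESeq2 with the replicate block; the cause was not tested. With 1 library left out, 7 members took both signs: Coq6 lay between -0.236 and 0.102, Coq2 between -0.133 and 0.588, Coq9 between -0.152 and 0.417, Coq7 between -0.046 and 0.191, Pdss1 between -0.102 and 0.174, Coq4 between -0.274 and 0.045 and Coq5 between -0.442 and 0.070. With 1 pair left out and the block kept, the sign turned without pair 1 for Pdss1 (-0.082), Coq7 (-0.042) and Coq9 (-0.004), without pair 2 for Coq6 (0.091) and Coq4 (0.082) and without pair 3 for Coq6 (0.015). The replicate block changed no call of a member. Over all genes, limma called 0 without and 29 with the block, edgeR 0 and 315, and DESeq2 1 and 133; without pairs 1, 2 and 3 the blocked limma fit called 11, 59 and 0. TMM scaling with the block, added after seeing the data, called 32. Counting error limits the smaller differences: for Pdss2 in pair 2, with 332 and 343 reads, the interval of the ratio ran from 0.874 to 1.19, and Coq8a and Fdx2 had fewer reads still.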
